A study of Mus musculus with 6 samples.

Results

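The results concern 10 CC chemokine genes, Ccl2, Ccl3, Ccl4, Ccl5, Ccl6, Ccl7, Ccl9, Ccl12, Ccl22 and Ccl24, out of 18193 genes that the platform annotation names on the array. They were taken by name: every probe set annotated with exactly 1 symbol, that of one of these genes, was used, which gave 12 probe sets. Ccl6 and Ccl9 had 2 probe sets each and the other genes 1, and the probe set with the highest mean over the 6 arrays stands for the gene. The arrays, Affymetrix Mouse Genome 430 2.0, measured RNA of bone marrow macrophages from c57BL/6 mice that lack TNF receptors 1 and 2 (TNFR1-/-R2-/-), of an age the sources used here do not give. All cells carried a chimeric receptor delivered by retrovirus, with the ligand-binding part of mouse TNFR1 outside and the membrane and inner parts of mouse RANK. In the mutant group (3 arrays) the IVVY motif of the RANK part was inactivated by mutation, and in the wild-type group (3 arrays) it was intact. Both groups went through a 3-day puromycin selection (2 ug/ml) and were then treated with TNF (10 ng/ml) together with M-CSF (44 ng/ml) for 24 hours, so that TNF acted through the chimeric receptor, and no array of untreated cells was analysed here. Each array held pooled RNA of 6 dishes, and the replicate numbers 1, 2 and 3, called assays here, stand for independent preparations. The comparison asks which of these chemokine genes depend on the IVVY motif.

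CC chemokines are small secreted proteins with a pair of adjacent cysteines near the start of the mature protein. They bind seven-pass receptors that signal through inhibitory G proteins and attract monocytes, lymphocytes, eosinophils or dendritic cells. Macrophages secrete many of them when TNF or microbial products activate NF-kB, and in bone they recruit osteoclast precursors, which are themselves cells of the monocyte lineage and carry the receptors Ccr1 and Ccr2. The macrophage markers were bright on every array: Csf1r, which encodes the receptor of M-CSF, lay between 23089 and 28649.9 on mutant arrays and between 23642 and 29009 on wild-type arrays, and all 8 markers measured passed the filter on dim probe sets.

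RefSeq (assembly GRCm38.p6) places 8 of the 10 genes on chromosome 11. Ccl5, Ccl9, Ccl6, Ccl3 and Ccl4 follow each other there with no other protein-coding gene between them, and Ccl2 stands beside Ccl7. Ccl12 lies apart from that pair by Ccl11, while Ccl22 is on chromosome 8 and Ccl24 on chromosome 5. RefSeq promoter entries were matched for 5 genes, Ccl3, Ccl6, Ccl9, Ccl12 and Ccl22. The 250 bases before the start are shown for Ccl9 (chr11:83578637-83578886, minus strand) and its neighbour Ccl6 (chr11:83593088-83593337, minus strand), because these adjacent genes differed in their values below. They are also shown for Ccl12 (chr11:82101595-82101844, plus strand), which differed between assays, as did most of the tested genes. Capitals mark matches to the motifs named after them.
Ccl9: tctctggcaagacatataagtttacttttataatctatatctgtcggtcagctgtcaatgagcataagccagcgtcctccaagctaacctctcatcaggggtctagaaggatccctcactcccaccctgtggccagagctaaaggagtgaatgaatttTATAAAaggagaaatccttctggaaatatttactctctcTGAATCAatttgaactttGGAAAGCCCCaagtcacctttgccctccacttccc
Ccl6: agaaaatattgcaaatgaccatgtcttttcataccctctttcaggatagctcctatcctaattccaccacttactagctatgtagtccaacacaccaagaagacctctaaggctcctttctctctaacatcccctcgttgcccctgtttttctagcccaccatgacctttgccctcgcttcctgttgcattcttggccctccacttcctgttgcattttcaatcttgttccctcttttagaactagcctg
Ccl12: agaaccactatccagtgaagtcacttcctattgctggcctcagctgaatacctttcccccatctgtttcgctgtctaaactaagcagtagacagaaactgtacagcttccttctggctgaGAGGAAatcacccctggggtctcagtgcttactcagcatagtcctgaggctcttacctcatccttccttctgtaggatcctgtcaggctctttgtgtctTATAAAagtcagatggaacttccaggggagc

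The motifs were searched in the window from 250 bases before to 50 bases after the start. On both strands these were the AP-1 site TGANTCA and the PU.1 core GAGGAA, an interferon response element made of a pair of GAAA blocks with 2 bases between them, and a kB site of NF-kB that reads 3 G, any 2 bases, 3 T and 2 C. The TATA box, TATAAA, was searched on the sense strand. A wider kB form, 3 G and 2 C with any 5 bases between them, overlaps the kB site, was found in 50.8% of windows and is not in capitals. Ccl9 held a kB match, which is also a wider kB match, on the minus strand, GGAAAGCCCC, at positions -35 to -26 from the start, where 1.63% of 32851 promoter windows hold one. It also held TGAATCA, an AP-1 match, at -53 to -47 (7.81% of windows) and a TATA box at -92 to -87 (8.32% of windows). Ccl12 had a TATA box at -31 to -26 and a PU.1 core at -130 to -125, and Ccl3 had a PU.1 core on the minus strand at -33 to -28, a motif found in 28.3% of windows. Ccl22 held the wider kB form at 2 places and no other motif, and the Ccl6 window held none. The interferon response element, in 3.44% of windows, was found in none of these 5. These matches describe letters only.

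Values are intensities, the brightness of a probe set on a linear scale, and the median probe set of an array lay between 8.86 and 9.38. Differences are mutant minus wild type of log2(intensity + 16), tested with limma over 22497 probe sets. A probe set was tested if it lay above the median of its array on at least 3 of the 6 arrays. Of the 12 chemokine probe sets 10 were tested, covering 8 genes, and Ccl22 and Ccl24 fell below the filter. Of the 8 tested genes, 0 passed at an adjusted p under 0.05, as did 0% of all probe sets tested (limma, 0 of 22497). At an unadjusted p under 0.05, limma had 0 of the 8 genes and 0.88% of all probe sets. The mean was lower in the mutant for 3 genes (48.3% of all probe sets) and higher for 5 (51.7%), with a median log2 difference of 0.20, against 0.00 over all probe sets tested. The groups overlapped in all 8 genes, so 0 were separate, where 1.59% of all probe sets were lower and 1.47% higher without overlap.

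Of the 8 genes, 2 kept 1 direction in all 3 assays. Ccl9 was below its partner in all same-numbered pairs, as were 11.7% of all probe sets, and Ccl2 was higher in every pair, as were 13.8%. With the replicate number as a block in limma, these 2 of 8 had an unadjusted p under 0.05, against 5.29% of all probe sets, and neither passed after adjustment.

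**Figure D1:**
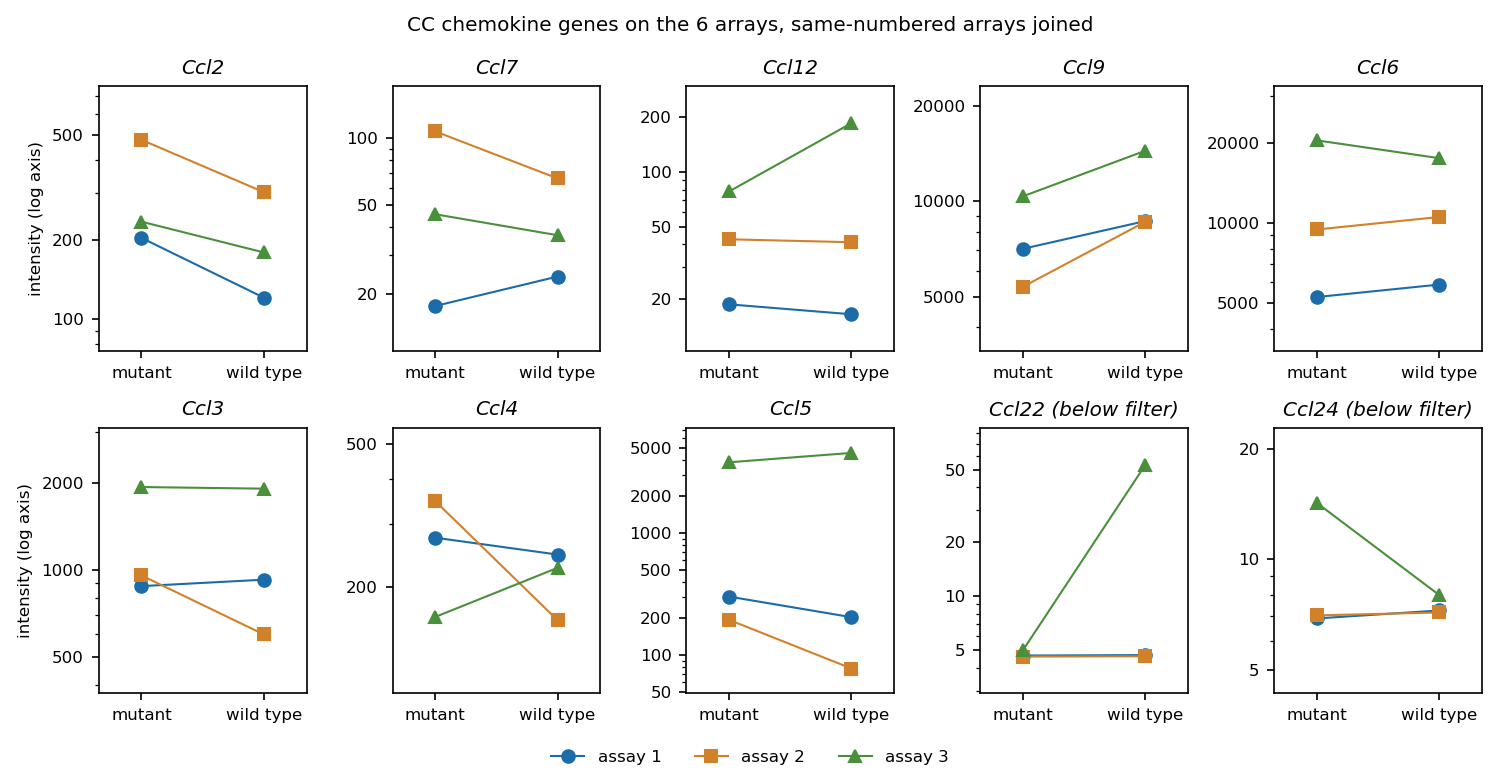
Intensity (log axis) of each of the 10 genes, with the mutant arrays on the left and the wild-type arrays on the right of each panel. Points are arrays and lines join the arrays of 1 assay. All 3 lines of Ccl2 run higher in the mutant and all 3 of Ccl9 lower, while Ccl5 is set apart by assay 3 in both groups.

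The ligands of Ccr2, the receptor that draws monocytes out of the marrow, were Ccl2, Ccl7 and Ccl12. Ccl2, also known as MCP-1, read 203, 478 and 234 on mutant arrays 1, 2 and 3, against 120.5, 303 and 179 on wild-type arrays 1, 2 and 3. Each mutant array was above its same-numbered partner, but the groups overlapped, since wild-type array 2 was above mutant arrays 1 and 3. Mutant arrays averaged 305 ± 150.5 and wild-type arrays 201 ± 93.0 (SD, n = 3 each). The log2 difference was 0.56 ± 0.45 SE (95% interval -0.56 to 1.68, limma, adjusted p = 0.99998), a 1.47-fold higher level. Within assays 1, 2 and 3 it was 0.68, 0.63 and 0.36. With the replicate block its interval was 0.27 to 0.84 (limma, adjusted p = 0.859).

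Ccl7 is a close relative of Ccl2 and its neighbour on the chromosome. It read 17.7, 107 and 45.6 on mutant arrays 1, 2 and 3, against 24.0, 66.1 and 36.7 on the wild-type arrays. It was lower in the mutant in assay 1 and higher in assays 2 and 3, with a log2 difference of 0.19 ± 0.54 SE (95% interval -1.17 to 1.55). Both genes were brightest in assay 2 and dimmest in assay 1 in each group, and over the 6 arrays their log2 values correlated at r = 0.88, a description of arrays that share 3 assays.

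Ccl12, a mouse chemokine of the same MCP group, read 18.7, 42.6 and 78.1 on mutant arrays 1, 2 and 3, against 16.5, 41.1 and 185 on the wild-type arrays. The order of the assays was the same in both groups, and assay 3 was the one in which the groups stood apart, with a difference of -1.10 on the log2 scale against 0.09 and 0.04 in assays 1 and 2. Its mean log2 difference of -0.32 ± 0.76 SE thus rested on assay 3, and without both arrays of assay 3 it was 0.067.

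Ccl9 and Ccl6 are bright macrophage chemokines of rodents that signal through Ccr1, and Ccl9 is known as a product of osteoclasts that RANK ligand induces. Ccl9 read 7072, 5369.9 and 10354 on mutant arrays 1, 2 and 3, against 8647, 8604 and 14412 on the wild-type arrays. Each mutant array was below its partner, and mutant array 3 lay above wild-type arrays 1 and 2, so the groups overlapped. Mutant arrays averaged 7599 ± 2534 and wild-type arrays 10554 ± 3341 (SD, n = 3 each). The log2 difference was -0.48 ± 0.33 SE (95% interval -1.31 to 0.34, limma, adjusted p = 0.99998), a 1.40-fold lower level. Within assays 1, 2 and 3 it was -0.29, -0.68 and -0.48. With the replicate block its interval was -0.78 to -0.18 (limma, adjusted p = 0.859).

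The second Ccl9 probe set behaved in the same way. It read 5496, 2846 and 9898 on mutant arrays 1, 2 and 3, against 7023, 6086 and 12938 on the wild-type arrays. Its pair differences were -0.35, -1.09 and -0.39 in assays 1, 2 and 3, so it was also lower in every pair, with the widest gap in assay 2. The annotation lists the same transcript accession for both, so they are not independent measures.

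Ccl6, the gene next to Ccl9, did not keep 1 direction. It read 5269, 9448 and 20405 on mutant arrays 1, 2 and 3, against 5868, 10523 and 17496 on the wild-type arrays. The assays were far apart and the partners close, with pair differences of -0.16, -0.16 and 0.22. The log2 difference was -0.03 ± 0.63 SE, and with the replicate block its 95% interval was -0.35 to 0.29. Its second probe set, which by its name suffix may also bind transcripts of related genes, gave pair differences of -0.26, -0.18 and 0.34.

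Ccl3, Ccl4 and Ccl5 are inflammatory chemokines of activated macrophages and lymphocytes, and Ccl3 and Ccl5 bind Ccr1. Ccl3, also called MIP-1 alpha, read 880.1, 958 and 1938 on mutant arrays 1, 2 and 3, against 927, 599 and 1912 on the wild-type arrays. The groups differed in assay 2 by 0.66 on the log2 scale and by -0.07 and 0.02 in assays 1 and 3, with a mean difference of 0.20 ± 0.52 SE. Ccl4, or MIP-1 beta, read 275, 347 and 165 on the mutant arrays, against 246, 162 and 226 on the wild-type arrays. It was higher in the mutant in assays 1 and 2 and lower in assay 3, at 0.15, 1.03 and -0.42, with a mean of 0.25 ± 0.31 SE. These neighbouring genes thus differed in how they followed the assays: Ccl3 was brightest in assay 3 in both groups, while Ccl4 had no common order.

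Ccl5, or RANTES, which attracts T cells and monocytes, showed the widest range on the log2 scale. It read 301, 194 and 3801 on mutant arrays 1, 2 and 3, against 204, 77.5 and 4538 on the wild-type arrays. Both arrays of assay 3 were far above the other 4, and the pair differences were 0.53, 1.17 and -0.25. The log2 difference of 0.48 ± 1.85 SE had a 95% interval from -4.18 to 5.14, and with the replicate block from -0.36 to 1.32.

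Ccl22, a ligand of Ccr4 made by dendritic cells and activated macrophages, was near the floor on 5 arrays. It read 4.69, 4.63 and 5.03 on mutant arrays 1, 2 and 3, against 4.71, 4.64 and 53.4 on the wild-type arrays. Wild-type array 3 alone was above its array's median, so no difference was tested. Ccl24, or eotaxin-2, a ligand of Ccr3 that attracts eosinophils, read 6.90, 7.04 and 14.2 on the mutant arrays, against 7.26, 7.17 and 7.99 on the wild-type arrays, and only mutant array 3 was above its array's median. For neither gene was expression shown on the remaining arrays at this signal.

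**Figure D2:**
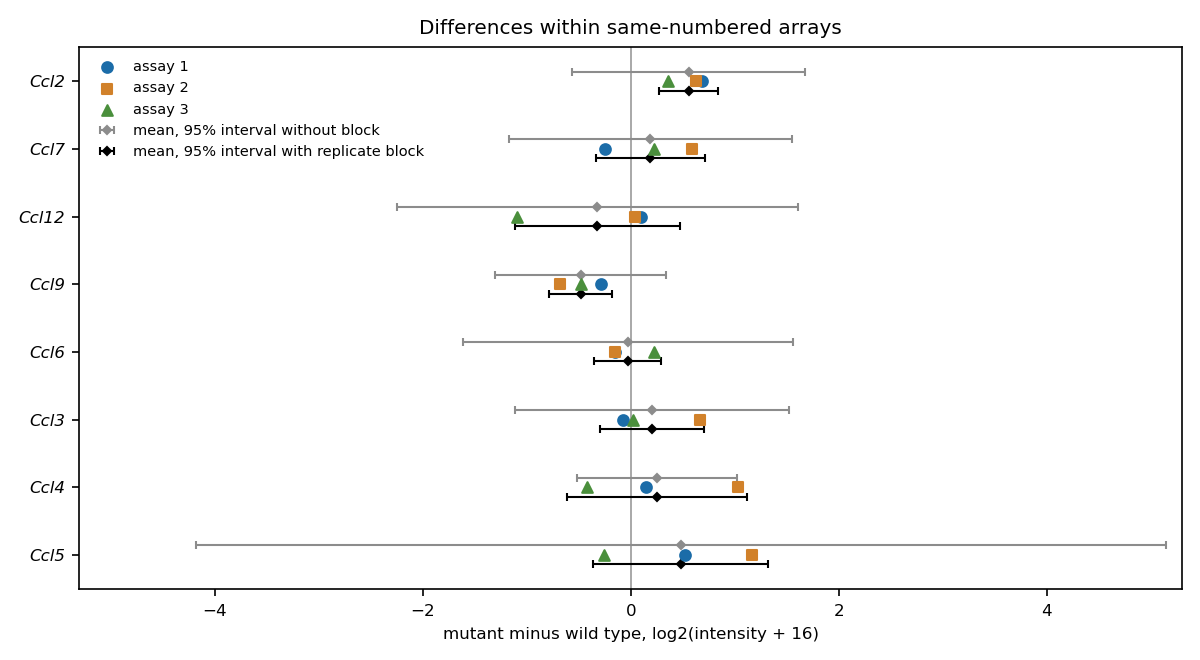
Difference between mutant and wild type (log2 scale, horizontal axis) for the 8 tested genes. Coloured points are the 3 assays, grey diamonds the mean with limma's 95% interval without a block and black diamonds the same with the replicate number as a block. The black intervals of Ccl2 (0.27 to 0.84) and Ccl9 (-0.78 to -0.18) lie to 1 side of 0, and those of the other 6 genes cross 0.

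Most of the variation in these genes lay between assays. The limma F test of the replicate number, with the group in the model, passed at an adjusted p under 0.05 for 7 of the 8 tested genes, all but Ccl4, against 23.3% of all probe sets. Replicate number took a median of 88.7% of a gene's sum of squares over the 8 genes and group 3.00%, against 76.0% and 4.82% over all probe sets tested. The share of the group was 29.9% for Ccl9 and 23.1% for Ccl2, and lower for the other 6 genes. For Ccl4 the remainder, which is neither group nor replicate number, was 67.0%. The count of 7 was 0 without mutant array 1, mutant array 3, wild-type array 1 or wild-type array 3, 3 without mutant array 2 and 4 without wild-type array 2, and no probe set at all passed in the first 4 cases. It was 4 with a pseudocount of 64 and 0 without the filter on dim probe sets.

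**Figure D3:**
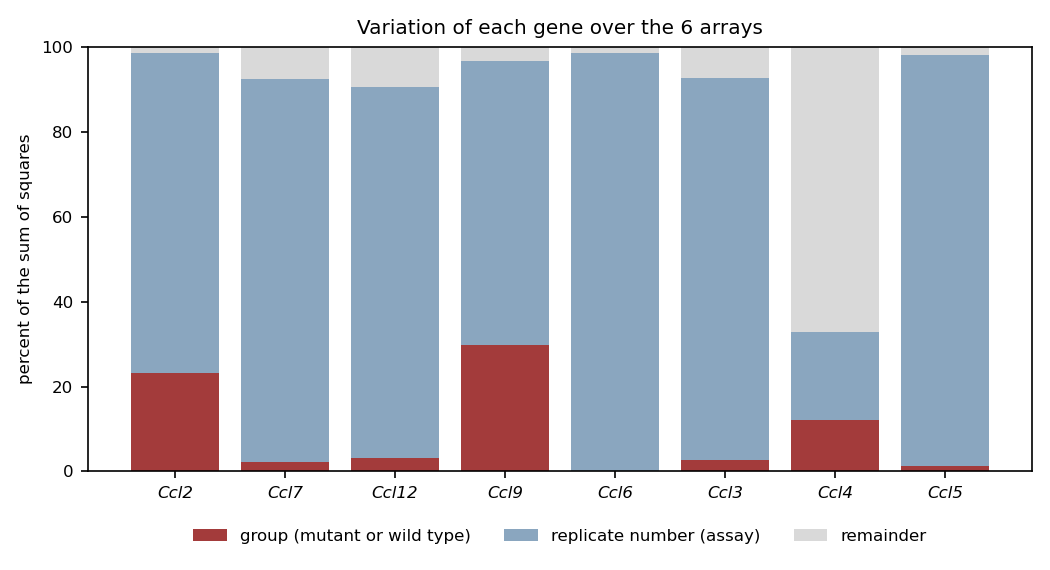
Percent of each tested gene's sum of squares over the 6 arrays (vertical axis) taken by group, replicate number and the remainder. Group takes 29.9% for Ccl9 and 23.1% for Ccl2, and replicate number takes 97.0% for Ccl5 and 98.5% for Ccl6.

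In 5 of the 8 genes, Ccl3, Ccl5, Ccl6, Ccl9 and Ccl12, both arrays of assay 3 were brighter than the other 4 arrays, against 20.9% of all probe sets. Stromal markers moved with assay 3. The summed intensity of the 8 stromal markers was 61.3, 157 and 4643 on mutant arrays 1, 2 and 3, and 60.6, 80.4 and 3347 on wild-type arrays 1, 2 and 3. All 5 stromal markers tested passed the limma F test of the replicate number, among them Col1a2, a collagen chain, at 1719 on mutant array 3 and 1109 on its wild-type partner, while the remaining 4 arrays read at most 16.1. The stromal genes Lum and Cxcl12 were at most 17.0 on every array. Between the groups, all 5 stromal markers tested had mutant means above the wild-type means (median log2 difference 0.36). Of these, 4 were higher in every pair, the direction of Ccl2, against 13.8% of all probe sets, and 0 of the 5 passed between the groups (limma). Some of these pair differences lay near the floor. In assay 1 Col1a2 read 6.07 on the mutant array and 5.69 on its partner, and Col3a1 7.18 and 7.16. Dcn, a stromal marker below the filter, went the other way in assay 3, at 4.61 on the mutant and 62.9 on the wild-type array. In pooled RNA, more stromal cells and more RNA per cell cannot be told apart, and the part of these cells in the chemokine values was not tested. The 7 lymphocyte markers measured summed to 44.9, 45.4 and 68.4 on mutant arrays 1, 2 and 3, and to 46.3, 58.9 and 64.9 on wild-type arrays 1, 2 and 3, so their sums were also highest in assay 3. Cd4, found on helper T cells, read 4.98, 5.46 and 29.2 on the mutant arrays, against 4.50, 19.5 and 26.6 on the wild-type arrays. Cd3e and Cd3g, which define T cells, read at most 7.60 on every array, and the part of lymphocytes in the chemokine values was not tested. The 7 neutrophil and mast cell markers measured, of which 1 passed the filter, ran the other way. They summed to 682, 463 and 160 on mutant arrays 1, 2 and 3, and to 636, 709 and 244 on wild-type arrays 1, 2 and 3. These sums were lowest in assay 3 in both groups, and the part of such cells was not tested.

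Osteoclast markers moved with the groups. The 9 osteoclast markers had sums of 1121 to 1883 on mutant arrays and 8538 to 26876 on wild-type arrays. Of 7 tested, 7 were lower in the mutant in every pair, against 11.7% of all probe sets. Of the same 7, 6 were lower without overlap, against 1.59% of all probe sets. The median log2 difference was -1.97, and 0 passed over all probe sets (limma). For Atp6v0d2, 1 of the 7, the difference in assay 2 was only -0.03. Its dimmer probe set was higher in the mutant in that assay, at 0.57. Itgb3 was at most 10.6 on every array. The part of osteoclasts in the lower Ccl9 values was not tested.

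The other CC ligands added 1 gene with a clear signal. Of 10 ligands looked for, 8 were matched and 3 were tested, and 0 passed in either direction. Ccl8, a further MCP chemokine, read 6.12, 33.7 and 646 on mutant arrays 1, 2 and 3, against 6.18, 37.7 and 972 on the wild-type arrays, so it too was brightest in assay 3. Ccl25 and Ccl27a read 20.2 to 39.9 on the 6 arrays with log2 differences of -0.02 ± 0.10 and -0.02 ± 0.21 SE. The remaining 5 matched ligands, among them Ccl11 and Ccl17, were below the filter.

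Of the CC receptors, 9 were matched and 3 tested, and 0 passed in either direction (limma). Ccr2, the receptor of Ccl2, Ccl7 and Ccl12, read 275, 60.3 and 160.4 on mutant arrays 1, 2 and 3, against 353, 72.8 and 200.5 on the wild-type arrays. It was lower in every pair, at -0.34, -0.22 and -0.30, with a mean of -0.29 ± 0.71 SE. Its second-brightest probe set was lower in every pair as well, at -0.61, -0.48 and -0.41. A further tested Ccr2 probe set was flat, at 42.8 to 43.6 on the 6 arrays, with pair differences of 0.007, 0.0006 and -0.004. In both groups Ccr2 was dimmest in assay 2, the assay in which Ccl2 and Ccl7 were brightest.

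Ccr1, the receptor of Ccl9 and Ccl3, read 372, 379 and 25.3 on mutant arrays 1, 2 and 3, against 379.5, 168 and 234 on the wild-type arrays. Mutant array 3 was the low one, and the pair differences of -0.03, 1.10 and -2.60 had no common direction. The dimmer tested Ccr1 probe set gave -0.04, 1.07 and -0.28, so it did not repeat the wide gap in assay 3. It read 8.70 on mutant array 3 and 13.9 on wild-type array 3. Its mean difference was 0.25, against -0.51 for the brighter probe set. Ccr9 read 11.2 to 11.8, near the floor. Ccr7, a receptor of mature dendritic cells that fell below the filter, read 103 on wild-type array 3 and at most 6.50 elsewhere, the same array that held Ccl22, while the dendritic cell genes Flt3, Cd209a and Zbtb46 read at most 8.47 on every array. Itgax, an integrin gene of dendritic cells and many macrophages and the 1 tested member of that list, read 179, 494 and 177 on mutant arrays 1, 2 and 3, against 231, 259.5 and 346 on the wild-type arrays. Wild-type array 3 was thus the highest of its group for Itgax but below mutant array 2, and the part of dendritic cells in the Ccl22 value was not tested.

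Among the 4 atypical receptors matched, which bind or scavenge chemokines without G protein signalling, 3 were tested and 0 passed. Ackr4 read 175, 637 and 285 on mutant arrays 1, 2 and 3, against 199, 431 and 249.99 on the wild-type arrays, with assay 2 brightest in both groups. Ccrl2, which binds chemerin, had a log2 difference of -0.04 ± 0.64 SE. Of 14 genes of G protein signalling downstream of chemokine receptors, 0 passed. The mean was lower for 4 (48.3% of all probe sets) and higher for 10 (51.7%), and the median log2 difference was 0.11. In every pair 3 of the 14 were lower (11.7% of all probe sets) and 6 were higher (13.8%). The kinase gene Prkcd (-0.46 ± 0.17 SE) and the GTPase gene Rac2 (-0.47 ± 0.19 SE) were lower without overlap, as were 1.59% of all probe sets. The dimmer probe set of each overlapped. Its pair differences were -0.45, 0.15 and -0.36 for Prkcd and -0.07, 0.20 and 0.004 for Rac2. Dock2, a Rac activator, had 0.23 ± 0.17 and Plcb3, a phospholipase, 0.20 ± 0.19.

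Of 10 genes of NF-kB and its inhibitors, 0 passed. The mean was lower for 8 (48.3% of all probe sets) and higher for 2 (51.7%). In every pair 6 were lower (11.7% of all probe sets) and 0 higher (13.8%), and the median log2 difference was -0.35. Bcl3, a nuclear partner of NF-kB, read 297, 443 and 257 on mutant arrays 1, 2 and 3, against 449, 720.2 and 472 on the wild-type arrays. It was lower without overlap (-0.70 ± 0.28 SE), as were 1.59% of all probe sets. Nfkb2, the precursor of p52 in the non-canonical pathway, had -0.86 ± 0.42, the inhibitor gene Nfkbia -0.35 ± 0.16 and the inhibitor gene Nfkbie -0.35 ± 0.23. Of 9 interferon and STAT factors, which induce Ccl5 and Ccl12 among others, 0 passed. The mean was lower for 5 (48.3% of all probe sets) and higher for 4 (51.7%). Stat3 (-0.30 ± 0.23 SE), Irf1 (-0.50 ± 0.39), Stat2 (-0.86 ± 0.97) and Irf9 (-0.23 ± 0.27) had the smallest p values among them in the fit without a block. In every pair 3 of the 9 were lower (11.7% of all probe sets) and 1 was higher (13.8%). Stat2 was among the 3, at -0.92, -1.07 and -0.58, and its interval with the replicate block was -1.21 to -0.51 (limma, adjusted p = 0.859).

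**Figure D4:**
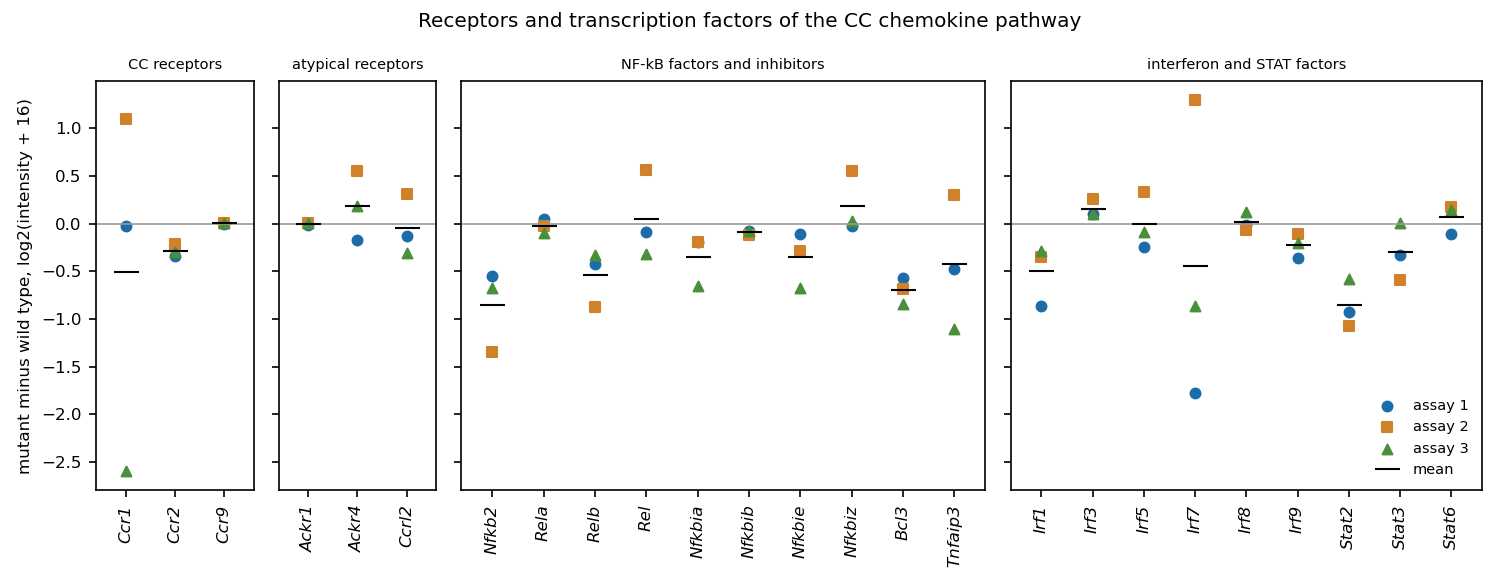
Difference between mutant and wild type (log2 scale, vertical axis) of the tested CC receptors, atypical receptors, NF-kB genes and interferon and STAT factors. Points are the 3 assays and black bars the means. Nfkb2 and Bcl3 lie below 0 in all 3 assays, and Ccr1, by its brighter probe set, spans -2.60 to 1.10.

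Proteases that trim CC chemokines were also read. Of 6 genes, 5 were tested and 0 passed. The collagenase gene Mmp14, whose protein cleaves several MCP chemokines, read 261, 88.8 and 473 on mutant arrays 1, 2 and 3, against 606, 579 and 1034 on the wild-type arrays. It was lower without overlap (-1.59 ± 0.61 SE), as were 1.59% of all probe sets. The dimmer Mmp14 probe sets were lower in every pair as well, but their groups overlapped. Mmp9 was also lower without overlap (-4.88 ± 0.89). Mmp12, a macrophage elastase, was higher in every pair (0.42 ± 0.33), as were 13.8% of all probe sets, and Ctsd, a lysosomal protease, had -0.09 ± 0.11. Dpp4, which trims many chemokines at the start of the protein, was below the filter.

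The genes whose log2 values ran closest to those of Ccl2 over the 6 arrays, among 10364 other genes, were Efr3a (r = 0.995), Prmt2 (0.989), Zfp512b (0.987), Ankrd50 (0.982) and Ttc17 (0.982). Zfp512b read 71.7, 144 and 89.6 on mutant arrays 1, 2 and 3, against 50.9, 101 and 60.7 on the wild-type arrays. For Ccl9 they were Lipe (r = 0.991), Rnf14 (0.991), Ankrd17 (0.988), Mlkl (0.988) and Cd52 (0.987). Mlkl, which encodes the effector of necroptosis, read 234, 114 and 407 on the mutant arrays, against 261, 301 and 659 on the wild-type arrays, and like Ccl9 it was lowest on mutant array 2 and highest on wild-type array 3. These correlations over 6 arrays of 3 shared assays are descriptions.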

How the data were processed

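RNA of bone marrow macrophages was measured on 6 Affymetrix arrays, 3 per group. The authors deposited a linear intensity for each probe set. GCOS and GCRMA were used, per the submitters' processing notes, with no version given. The arrays were already on 1 scale, with 75th percentiles between 160.5 and 164, and were not normalized again.

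The table holds 45101 probe sets, of which 64 are controls and were dropped. In the annotation of the platform 34945 of the rest have 1 symbol, 932 several and 9160 none. The 12 chemokine probe sets kept their symbols in the RefSeq gene table of GRCm38.p6. Intensities were transformed to log2(value + 16), which understates changes of dim genes. Probe sets above their array's median (percentile 50) on at least 3 arrays were tested with limma 3.58.1 in R 4.3.3 (lmFit and eBayes, two-sided, Benjamini-Hochberg over 22497 probe sets, threshold 0.05), for group without a block and for the replicate number with group in the model. The steps were run on simulated data. There a set number of calls was required of the fit with a fixed block and of the replicate number test. No such requirement was set for the fit without a block. Standard errors and 95% intervals are limma's. The number of arrays limits the precision. In the group fit without a block, p-values set the difference against the spread between these preparations. With a fixed block, and in the replicate number test, the error is what group and replicate number leave over.

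Deviations from the group means correlated at 0.797, 0.671 and 0.845 between same-numbered arrays and at -0.618 to -0.0138 between other pairs. Deviations from a mean of 3 arrays cancel out within a group, so the negative values are partly built in. Same-numbered arrays were treated as pairs in the counts by pair and in the fits with a replicate block. This pairing was set by the replicate numbers of the labels, not by these correlations. Where no block is named, SE, intervals and p values of the group comparison come from the fit without a block, which leaves the pairing out. In that fit variation between assays counts as error, and for Ccr2 the SE was 0.71, against 0.077 with the block. The 3 preparations were independent, per the labels' protocols. The members and gene lists were chosen with earlier results of these data known. All members are named, and the 5 genes most correlated with Ccl2 and with Ccl9. Of each other list up to 4 genes were to be named by smallest p. The lists of cell type markers did not follow this rule. The remaining names, such as Col1a2, were picked with values in view. Motifs were searched in RefSeq promoters with Python 3.11.15.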

Additional observations from a re-analysis of the deposited data

How the results depend on the processing

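No chemokine gene passed the comparison of the groups in limma under any of the 18 alternatives run, which changed the pseudocount (1 or 64), the filter (none or the 70th percentile), the scaling, the block, the probe set rule or the arrays used. Over all probe sets, 1 passed with a random replicate block and 0 under the other alternatives run on them, which leave out the averaging of the probe sets of a gene. With the fixed replicate block, Ccl2 kept its log2 difference of 0.56 and Ccl9 its -0.48, with narrower intervals, and the block changed no call. Leaving out single arrays, Ccl2 ranged from 0.20 to 0.88 and Ccl9 from -0.73 to -0.23, while the direction turned for Ccl3 (-0.17 to 0.65), Ccl5 (-0.82 to 2.14), Ccl6 (-0.54 to 0.44), Ccl7 (-0.29 to 0.65) and Ccl12 (-0.90 to 0.42). Without both arrays of assay 1, Ccl6 was at 0.033; without assay 2, Ccl3 was at -0.027, Ccl4 at -0.14, Ccl6 at 0.033 and Ccl7 at -0.011; without assay 3, Ccl12 was at 0.067. Without assay 1 or 3, 3 and 4 genes were higher in every remaining pair, where fewer pairs were required. Without assay 3 or without the filter, 2 were lower in every pair. The replicate number test called 0 to 4 of the 8 genes and 0 to 3325 probe sets without single arrays, and 0 of both without assay 1 or assay 3. Without assay 2 it called 4 genes, with a pseudocount of 64 it called 4, and without the filter 0 genes and 259 probe sets. Apart from the smaller number of arrays or pairs, the cause was not tested. Signal near the array medians limits Ccl22 and Ccl24.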

Other observations

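Wild-type array 3, the array on which Ccl22 and Ccr7 were measured, held more probe sets of this kind than the others. A probe set was counted where 1 array read over 40 and over 4 times the highest of the other 5 arrays, a rule chosen after the values were seen. Wild-type array 3 had 41 such probe sets from 29 genes, against 5, 4 and 4 probe sets on mutant arrays 1, 2 and 3, and 1 and 8 on wild-type arrays 1 and 2. By ratio Il1b came first, the gene of the inflammatory cytokine interleukin-1 beta, at 764, which was 21.8 times the highest other array. Ptgs2, which encodes the prostaglandin synthase COX-2, read 247 against at most 28.5, and Adm, which encodes adrenomedullin, 76.3 against at most 4.77. Ccl22, at 53.4 against at most 5.03, was the tenth gene by ratio. The stromal gene Dcn (62.9 against at most 4.67) and the osteoclast gene Ocstamp (59.5 against at most 14.2) were also among the 29. These values come from 1 array and have no replicate check.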
